A study of Mus musculus with 12 samples.

Results

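This account follows 8 noncoding RNAs of mouse sensory neurons through a RiboTag experiment. They are the small cytoplasmic RNA Bc1, the long noncoding RNAs Malat1 and Meg3, and the small nucleolar RNA (snoRNA) host genes Snhg1, Snhg6, Snhg8, Snhg9 and Gas5. The members were chosen by symbol, with no measured value in the rule, as RNAs that code for no protein. Earlier results of these data were known at that choice, so the list is not independent evidence. All 8 of the 8 symbols were found among the 14675 gene IDs of the table, each with 1 ID, and all 8 passed the filter on low counts.

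In RiboTag mice, Cre recombinase switches on a copy of the ribosomal protein RPL22 that carries an HA tag, so that an anti-HA antibody collects the ribosomes of Cre-expressing cells and the RNA bound to them. The mice here were adult and of genotype RPL22HA+/+;Advillin-Cre+. Advillin-Cre is active in sensory neurons of the dorsal root ganglion (DRG), and the glia, blood and connective tissue cells of the ganglion carry no tag. Input denotes the total RNA and IP the RNA that came down with the tag. Both fractions were taken from mice given AAV-shGpr151, a viral vector whose short hairpin targets Gpr151, and from mice given AAV-shGpr151 together with AAV-e5'UTR (written e5UTR below). Every group thus carries the hairpin, mice without it were not analysed here, and what the e5'UTR insert consists of is not stated in the labels. The design text speaks of neurons cultured after a sciatic nerve injury and the protocol of freshly collected DRGs, and which of these was sequenced could not be settled. Sex, the number of mice and any pooling are not given in them either.

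Each of the 4 groups has 3 deposited columns, with totals of 975403 to 985277 estimated counts in input and 1381220 to 1517685 in IP. The 3 columns of a group differed by little more than counting noise: the median gene's chi-square between them was 1.08 to 1.12 times the value from counting, and among the members only Malat1 in IP shGpr151 (p = 0.0242, chi-square test) and Gas5 in IP with e5UTR (p = 0.0317) had p under 0.05. The columns of a group were therefore counted as 1 sample, called a pool. Tests over the columns compare these pools of reads and not the conditions, differences between the treatments have no replicate check, and IP against input has 2 pools per fraction. As a check of the labels, the Advillin gene Avil was at 3.94 times its input level in IP, Rpl22 was at log2 −0.80 ± 0.04 (SE), and Gpr151 had 7 to 50 counts in a column.

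These RNAs meet the ribosome in different ways. Bc1 is a short RNA made by RNA polymerase III in neurons of rodents, derived from a transfer RNA gene and carried into dendrites and axons in protein complexes that are known to repress translation. Malat1 is retained in nuclear speckles, and Meg3 is an imprinted, maternally expressed RNA found mostly in the nucleus. Host genes carry snoRNAs in their introns: once these are cut out, the spliced exons of a noncoding host such as Gas5 leave the nucleus, engage ribosomes at short reading frames and are removed by nonsense-mediated decay. Several hosts, coding and noncoding, begin with a terminal oligopyrimidine (TOP) tract, a run of C and T letters directly at the transcript's start that is known from ribosomal protein genes.

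The first 30 bases at the annotated start are given for Bc1, Gas5, Snhg8 and Snhg1, with Malat1 and Snhg9 for contrast. The first Gas5 start and both Meg3 starts, which do not begin with C or T letters, are not printed. The annotated starts come from RefSeq (build GRCm38.p6) and cover 7 of the 8 members, all but Snhg6. The files' own build is another, GRCm39 per the submitters' processing notes. Capitals mark the A box, the internal promoter element of RNA polymerase III, in Bc1, and the pyrimidine run from the first base in the host genes.
Bc1, chr7:144914470-144914499, plus strand: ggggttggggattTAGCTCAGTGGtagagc
Gas5 (second of 2 starts), chr1:161035166-161035195, plus strand: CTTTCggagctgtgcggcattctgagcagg
Snhg8, chr3:123508307-123508336, minus strand: CTCTTTggctgcgatccgcctacgagtatg
Snhg1, chr19:8723487-8723516, plus strand: CTCatttttccttgttcggggtaagtactc
Snhg9, chr17:24719936-24719965, minus strand: gccgaagccgcgccctacaccagccggaag
Malat1, chr19:5802643-5802672, minus strand: caggcattcaggcagcgagagcagagcagc
A match to the A box lay at bases 14 to 24 of Bc1. The same motif was found in the first 30 bases of 1.66% of all RefSeq starts on the transcript's strand and of 2.91% on either strand. A run of at least 4 C or T letters that begins with C at the first base was found at 3.76% of 32851 starts. Among the members it was present at 2 of 9 starts, those of Snhg8 and of the second Gas5 start, while the run of Snhg1 is 3 letters long. It was present at 0 of 13 starts of the other noncoding host genes and at 2 of 22 starts of coding host genes. These matches are descriptions of the letters only.

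All 8 noncoding RNAs were lower in IP than in input, and they fell into 2 ranges. Bc1, Malat1 and Meg3 stood at 0.379% to 7.73% of their input level, whereas the 5 host genes stood at 30.6% to 74.8%. A gene was called where edgeR's quasi-likelihood test over all 8085 tested genes gave a Benjamini-Hochberg adjusted p under 0.05. All 8 members were called lower in the mean of both treatments, where 38.0% of all tested genes were called lower and 38.7% higher. They were also all called lower in shGpr151 alone (35.8% of all genes) and in shGpr151 with e5UTR alone (34.6%). With the 4 pools as the samples, 2 per fraction, all 8 were called lower again (32.2% of 11343 genes), with log2 ratios from −8.00 to −0.71. The 2 pools of a fraction are the 2 treatments, so the spread between them holds any treatment difference and is not that of replicates. The median log2 ratio of the members was −1.46, against 0.10 over all tested genes. Bc1, Malat1 and Meg3 were at least 4-fold lower, as were 18.2% of all tested genes. The IP columns lay below the input columns for all 8 members in both treatments, in which the columns of 71.3% (shGpr151) and 71.2% (with e5UTR) of all tested genes did not overlap in one direction or the other.

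These ratios depend on how the libraries are scaled. The trimmed mean of M-values (TMM) was used, and dividing by library totals instead moved all log2 ratios of IP over input up by 0.89 at the median and turned the share of called genes that were higher from 50.5% to 72.4%. By library total 6 of the 8 members were still called lower. Snhg6 was then at log2 −0.11 (adjusted p = 0.22) and Snhg9 was above 0, at 0.14 (adjusted p = 0.0035). The order of the members does not depend on the scaling.

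**Figure D1:**
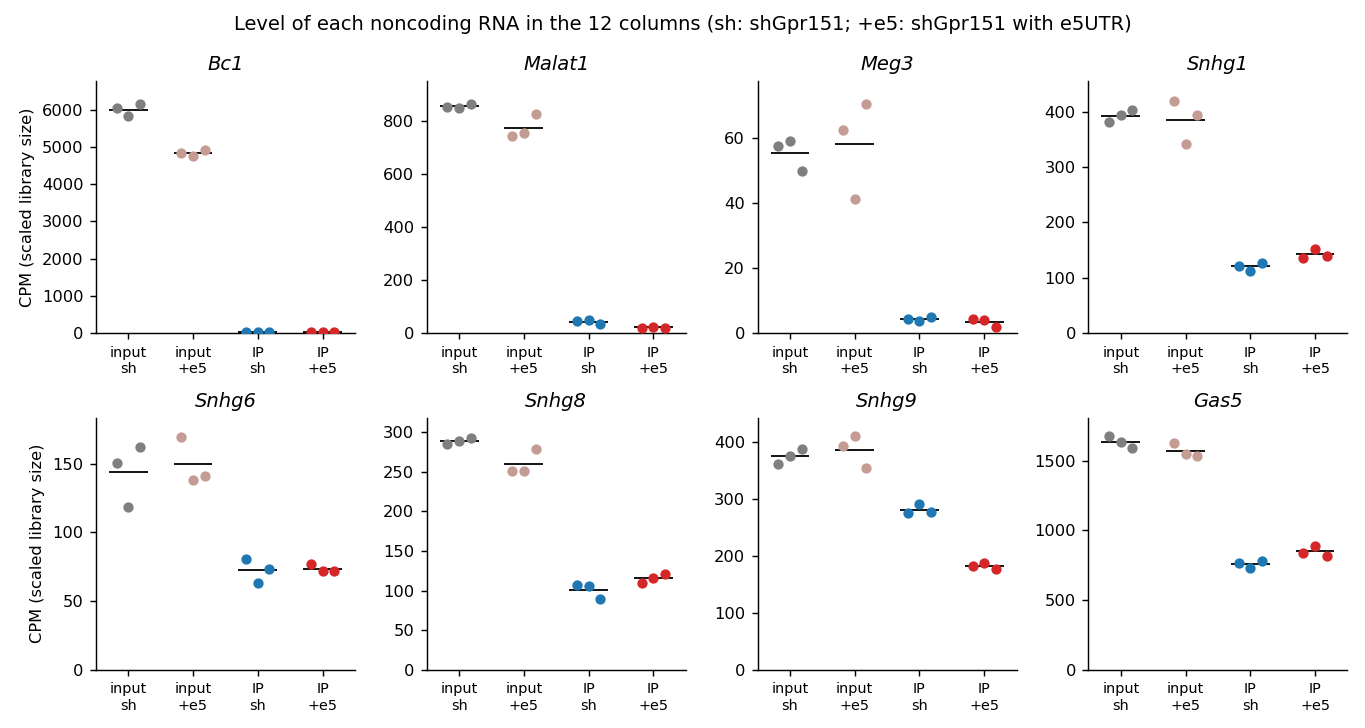
Level of each noncoding RNA in the 12 columns, in CPM (counts divided by the TMM-scaled library size), 1 panel per RNA with an axis of its own that starts at 0; points are the 3 columns of a pool and lines their mean. All IP points lie below all input points in every panel, with Bc1 near 0 in IP, and in IP the e5UTR points of Malat1 and Snhg9 lie below those of shGpr151.

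Bc1 was almost absent from the pull-down. The input columns held 4301, 4140 and 4322 counts of Bc1 with shGpr151 and 3403, 3344 and 3489 with e5UTR. Those of IP held 49, 49 and 35 with shGpr151 and 44, 35 and 32 with e5UTR. Each input column was thus far above each IP column, although the IP columns are the deeper ones. Bc1 made up 0.432% of all counts of input shGpr151. Its level in IP was 0.396% of input (95% counting interval 0.332 to 0.470) with shGpr151 and 0.379% (0.311 to 0.456) with e5UTR, and edgeR's log2 ratio over both was −8.01 ± 0.04 (adjusted p = 2.8e-41). Only 10 of the 8085 tested genes had a lower ratio, which put Bc1 at rank 11.

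Bc1 is a neuronal RNA, so its level in IP can be set beside RNAs of cells without the tag. The 4 adult hemoglobin mRNAs, which mark red blood cells, together had 5034 and 4924 counts in input against 13 and 19 in IP. That was 0.0982% (0.0523 to 0.168) and 0.135% (0.0810 to 0.211) of input. The ratio of IP to input was 4.04 times higher for Bc1 than for hemoglobin with shGpr151 (95% interval 2.28 to 7.78) and 2.81 times higher with e5UTR (1.72 to 4.85). Both intervals lie above 1, and this comparison within the same pools needs no scaling between libraries. Most of the hemoglobin counts in IP were of Hba-a2, and without it 3 and 2 counts remained, 0.0306% and 0.0191% of input. RNAs from within the mitochondrion, where ribosomes have no RPL22, stood higher: the 15 mitochondrially encoded RNAs were at 5.96% (5.84 to 6.08) and 4.99% (4.88 to 5.09) of input. The 13 mRNAs among them were at 6.69% and 5.50%, and the 2 ribosomal RNAs at 4.86% and 4.16%. Sums over markers of the other untagged cells are given with and without the gene of most IP counts, a choice made after seeing the data. Because that gene was picked by its IP counts, the lower values without it are partly built in. The 10 Schwann cell mRNAs stood at 24.5% and 22.04% of input, and at 7.104% and 6.75% without Pmp22, with a median log2 ratio of −4.10 beside −4.24 for the mitochondrially encoded RNAs. Of the 9 tested Schwann cell genes 7 were called lower and 0 higher, and Ncmap had 0 counts in IP. The 8 satellite glia mRNAs stood at 25.2% and 24.2%, and at 15.3% and 16.3% without Glul, the 1 of 7 tested genes that was called higher (5 were lower, median −1.72). The 8 macrophage mRNAs stood at 40.2% and 42.3%, above Snhg1 in both treatments, and at 24.7% and 22.5% without Lyz2 (5 of 6 tested genes lower, 1 higher). The 5 fibroblast mRNAs stood at 21.997% and 28.1%, and at 16.5% and 22.3% without Col1a1 (4 of 5 lower, 0 higher). The 10 sensory neuron mRNAs of the list together stood at 191% and 204% of input, with 8 called higher and 1 lower.

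Other small RNAs of RNA polymerase III were rare in this table. Of 9 such RNAs on the list 3 were present: Rny3 and Rny1, the Y RNAs, and Rpph1, the RNA of ribonuclease P. Together they had 83 and 88 counts in input and 11 and 13 in IP, which was 5.04% (2.42 to 9.49) and 5.16% (2.64 to 9.28) of input. Without Rny3 there were 2 counts in each IP pool. Rny3 was the only one tested and was called lower, at log2 −3.92 ± 0.29.

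**Figure D2:**
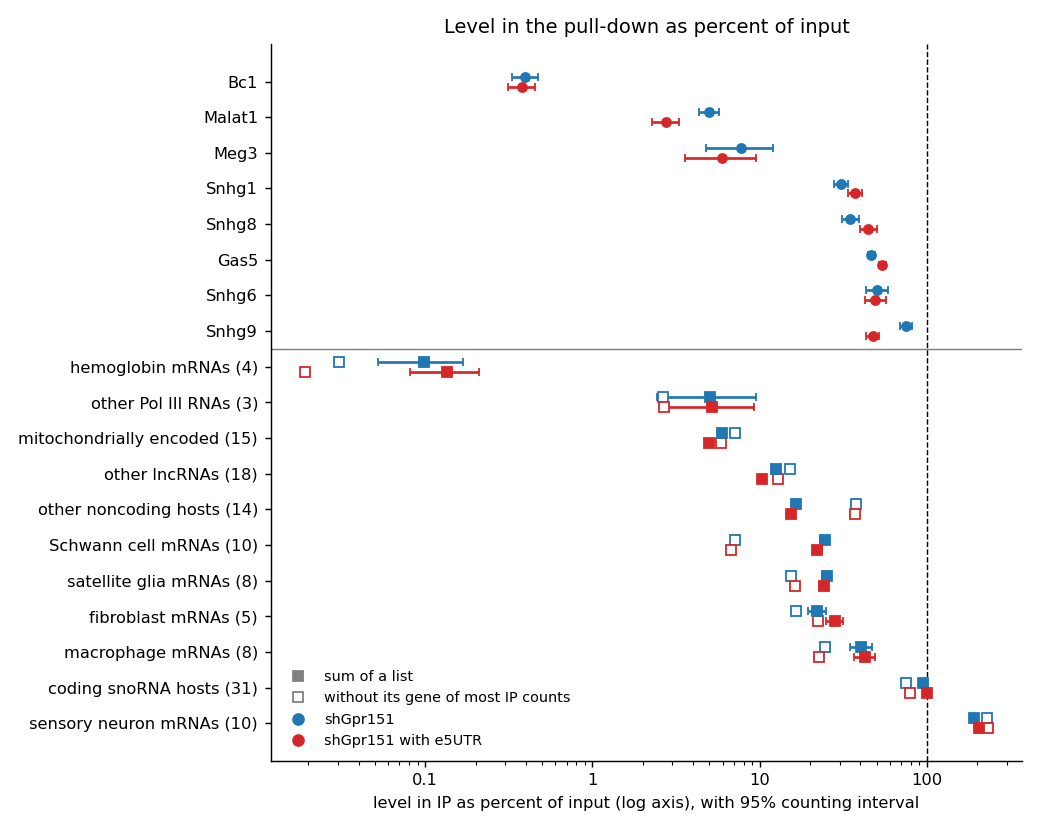
Level in IP as percent of input on a log axis, with 95% counting intervals, for the 8 members (circles) and for sums over gene lists with the number of genes in parentheses (filled squares; open squares leave out the gene of most IP counts), in shGpr151 (blue) and with e5UTR (red); the dashed line marks 100%. Bc1 lies between hemoglobin and the mitochondrially encoded RNAs, and Malat1 and Meg3 lie beside the latter. The 5 host genes lie between 30.6% and 74.8%, in a range that also holds the macrophage sum, and open and filled squares lie far apart for hemoglobin, Schwann cells and the other noncoding hosts.

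Malat1 and Meg3, the nuclear RNAs of the set, stood near the mitochondrially encoded RNAs. Malat1 had input counts of 607, 604 and 608 with shGpr151 and of 522, 532 and 588 with e5UTR. In IP it had 82, 95 and 61 with shGpr151 and 38, 49 and 42 with e5UTR, so that the groups did not overlap in either fraction. The level in IP was 4.98% of input (4.33 to 5.70) with shGpr151 and 2.74% (2.28 to 3.28) with e5UTR, with a log2 ratio of −4.75 ± 0.06 over both. Meg3 had few reads, with input counts of 41, 42 and 35 for shGpr151 and of 44, 29 and 50 with e5UTR, and IP counts of 8, 7 and 9 and of 9, 8 and 4. The treatments overlapped in both fractions. Its level in IP was 7.73% of input (4.77 to 12.1) and 5.96% (3.56 to 9.52), with a log2 ratio of −3.85 ± 0.19. Malat1 and Meg3 did not differ beyond counting error with shGpr151, where the ratio of Meg3 was 1.55 times that of Malat1 (0.938 to 2.48), and did with e5UTR (2.17, 1.25 to 3.61). Neat1, the nearest gene to Malat1 and the scaffold of nuclear paraspeckles, had 55 and 38 counts in input and 19 and 17 in IP (log2 −2.77 ± 0.29).

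The 5 host genes were retained far more. Gas5 had 1193, 1161 and 1122 counts in the input columns of shGpr151. With e5UTR the input columns had 1143, 1089 and 1091. In IP it had 1424, 1368 and 1459 counts with shGpr151 and 1690, 1802 and 1651 with e5UTR, and the IP columns of the treatments did not overlap. Per scaled library size this was 1636 CPM (counting interval 1582 to 1691), 1571 CPM (1518 to 1626), 761 CPM (738 to 784) and 849 CPM (826 to 873), in that order. The level in IP was 46.5% of input (44.5 to 48.7) with shGpr151 and 54.0% (51.7 to 56.5) with e5UTR, and the log2 ratio was −0.996 ± 0.03 (adjusted p = 2.3e-23). By library total Gas5 in the e5UTR pools stood at −0.01, with no call (adjusted p = 0.90). Set against Bc1 in the same pools, the ratio of IP to input of Gas5 was 117 times higher with shGpr151 (98.3 to 141) and 143 times higher with e5UTR (118 to 174).

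Snhg1, the host of a group of box C/D snoRNAs, had input counts of 271, 280 and 284 with shGpr151 and of 294, 240 and 280 with e5UTR. Its IP counts were 225, 210 and 237 and then 273, 308 and 280, so that the treatments overlapped in input and not in IP once scaled. Its level in IP was 30.6% (27.6 to 33.9) and 36.9% (33.5 to 40.7) of input (log2 −1.57 ± 0.06). Snhg8, the host of Snora24, had input counts of 203, 205 and 206 with shGpr151 and of 176, 176 and 198 with e5UTR, and IP counts of 199, 196 and 167 and of 222, 235 and 245. It stood at 34.8% (30.99 to 39.1) and 44.6% (39.8 to 49.9) of input (log2 −1.34 ± 0.06). The neighbours of these genes went the other way in IP. Slc3a2, the amino acid transporter subunit nearest to Snhg1, was at log2 1.37 ± 0.13, and Prss12, the serine protease gene nearest to Snhg8, at 2.46 ± 0.16. Of the genes that overlap members, Rtl1, the retrotransposon-derived gene at Meg3, was at 0.14 ± 0.32 (adjusted p = 0.69), and Zbtb37, which overlaps Gas5, had at most 10 counts in a pool.

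Snhg6, the host of Snord87, had input counts of 107, 84 and 114 with shGpr151 and of 119, 97 and 100 with e5UTR, and IP counts of 150, 118 and 137 and of 155, 145 and 145. It stood at 50.5% (43.4 to 58.8) and 49.2% (42.5 to 57.0) of input (log2 −1.004 ± 0.09), and the treatments overlapped in both fractions. Snhg9 had input counts of 257, 267 and 273 with shGpr151 and of 276, 288 and 251 with e5UTR, and IP counts of 510, 541 and 517 and of 369, 378 and 356. It stood at 74.8% (68.7 to 81.6) of input with shGpr151, the highest level among the members there, and at 47.3% (43.1 to 51.8) with e5UTR (log2 −0.75 ± 0.05 over both). The IP columns of Snhg9 fell into 2 separate ranges by treatment and the input columns did not.

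In shGpr151 the ratios of IP to input rose from Bc1 through Malat1, Meg3, Snhg1, Snhg8, Gas5 and Snhg6 to Snhg9. The neighbours Malat1 and Meg3, Snhg1 and Snhg8 (1.14, 0.973 to 1.33), and Gas5 and Snhg6 (1.09, 0.927 to 1.27) did not differ beyond counting error, and the other 4 pairs of neighbours did. With e5UTR the first 5 stood in the same order and each differed from the next. Snhg8, Snhg9, Snhg6 and Gas5, the last 4 there, did not differ between neighbours, with ratios of 1.04 to 1.10 and intervals that include 1. Further apart in that order, Gas5 stood above Snhg8 (1.21, 1.07 to 1.37) and above Snhg9 (1.14, 1.03 to 1.27).

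**Figure D3:**
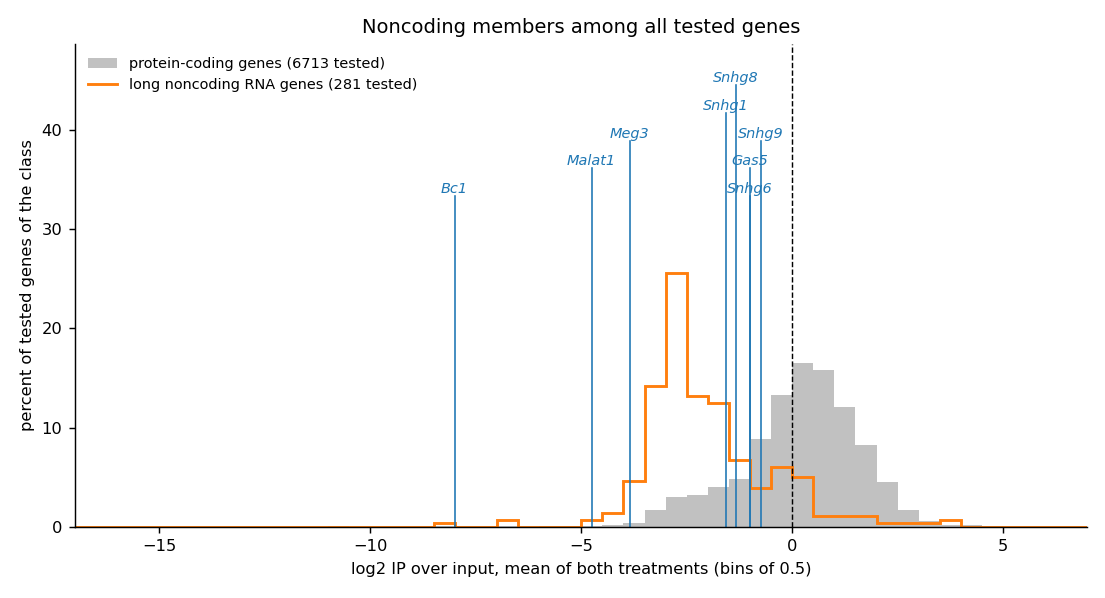
Share of tested protein-coding genes (grey, 6713 genes) and long noncoding RNA genes (orange outline, 281 genes) in bins of 0.5 of log2 IP over input, mean of both treatments, with a line at each member's value; the heights of the lines carry no value. Bc1, Malat1 and Meg3 lie below the orange peak, and the 5 host genes lie above it and below the grey peak.

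Wider classes give the background to these values. Of the 281 tested genes that RefSeq calls long noncoding RNA, members included, 237 were called lower and 13 higher in IP, with a median log2 of −2.48. Of 6713 tested protein-coding genes 1998 were called lower and 2951 higher, with a median of 0.30. The 5 host genes thus stood above the median of long noncoding RNAs and below that of protein-coding genes.

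Of 18 other noncoding snoRNA host genes on the list 14 were in the table and 12 were tested, of which 10 were called lower and 1 higher, with a median log2 of −1.52. The median of all genes was 0.10, and by library total the list had 8 lower and 3 higher. The lowest were Snhg14 at −3.56 ± 0.28, the large neuronal host of an imprinted snoRNA cluster, Zfas1 at −3.22 ± 0.02, and Snhg17 at −3.02 ± 0.22. Zfas1 had 7600 and 7490 counts in input and 2295 and 2155 in IP. The highest were Epb41l4aos at 1.08 ± 0.17, which was the 1 called higher, Snhg10 at 0.33 ± 0.23 (adjusted p = 0.24) and Snhg3 at −0.53 ± 0.12. The summed counts of the 14 stood at 16.5% (15.9 to 17.1) and 15.4% (14.8 to 15.9) of input, and without Zfas1 at 37.8% and 37.3%. These noncoding hosts ranged from the level of nuclear RNAs to that of neuronal mRNAs.

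Of 31 host genes that also code for protein, all tested, 17 were called lower and 13 higher, with a median log2 of −0.13, which is below that of all genes (0.10) and of protein-coding genes (0.30). Their summed counts stood at 94.8% (93.9 to 95.7) and 100.5% (99.5 to 101.4) of input. Without Hspa8, the gene of most IP counts, they stood at 74.5% and 78.9%, about the level of Snhg9 in shGpr151. By library total 2 were lower and 26 higher. The lowest were Tpt1, a TOP mRNA, at −3.05 ± 0.05, the ribosomal protein gene Rps12 at −2.002 ± 0.04, and Nop58, a core protein of box C/D snoRNA particles, at −0.99 ± 0.16. The highest were the heat shock gene Hspa8 at 2.75 ± 0.02, Rplp2 at 1.48 ± 0.06 and Nop56, the partner of Nop58, at 1.48 ± 0.15.

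Of 25 other long noncoding RNAs on the list 18 were in the table and 13 were tested, of which 11 were called lower and 1 higher, with a median of −2.57. Xist, the RNA that coats the inactive X chromosome, had 38 and 34 counts in input and 0 and 1 in IP. Rian, an imprinted RNA transcribed from the same cluster as Meg3, stood at −3.93 ± 0.25, close to Meg3, and Firre, a nuclear RNA of the X chromosome, at −3.59 ± 0.06. The highest were the imprinted Peg13 at 0.76 ± 0.21, which was called higher, Tug1 at 0.31 ± 0.31 (adjusted p = 0.36), and 1700020I14Rik at −2.03 ± 0.20.

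The genes most like 4 of the members across the pools were found by the root mean square difference of log2 CPM, centred over the 4 pools, among 3442 genes with at least 300 counts. This is a likeness over 4 points only, which is set mainly by the ratio of IP to input. For Bc1 they included Gm45155 (0.29) and the hemoglobin gene Hba-a2 (0.34). For Malat1 they were Gm12354 (0.13), Gm47043 (0.16) and Gm26619 (0.21), of which Gm12354 had 4107 and 3093 counts in input and 433 and 273 in IP. For Meg3 they were Gm49756 (0.02), Gm13075 (0.03) and the mitochondrially encoded mt-Co3 (0.04). For Gas5 they were the coding genes Calm2 (0.02), Ybx1 (0.02) and Ssr1 (0.03), which code for a calmodulin, a cold shock domain protein that binds RNA, and a subunit of the translocon-associated complex.

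**Figure D4:**
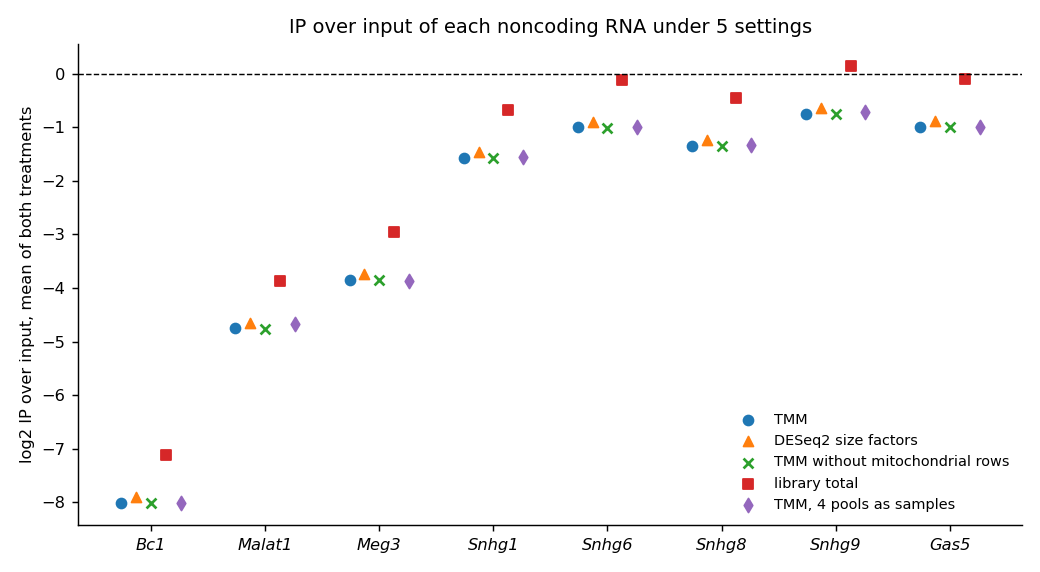
Log2 ratio of IP to input, mean of both treatments, of each member under 5 settings: TMM, DESeq2 size factors, TMM without mitochondrially encoded rows, library total, and TMM with the 4 pools as samples; the dashed line marks equal levels. Scaling by library total lifts all members by a like amount, so that Snhg9 comes to lie above 0 at 0.14 and Snhg6 and Gas5 just below it, while Bc1, Malat1 and Meg3 stay below −2.9.

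The second comparison was of shGpr151 with e5UTR against shGpr151 alone, within each fraction. In input, 16 of 8085 genes were called (0.198%), 394 had an unadjusted p under 0.05, and Bc1 was the 1 member among those called. Bc1 stood at 6006 CPM (5902 to 6111) with shGpr151 and at 4840 CPM (4746 to 4934) with e5UTR, a ratio of 0.806 (0.785 to 0.827). Its log2 difference was −0.31 ± 0.03 (adjusted p = 1.2e-08), and the 3 columns of each treatment did not overlap. The value stayed between −0.33 and −0.30, with a call, under all 20 alternatives. In bulk RNA, fewer neurons in the sampled tissue and less Bc1 per neuron cannot be told apart. Beside it, the 10 sensory neuron mRNAs summed to 10026 counts with shGpr151 and 9905 with e5UTR in input, a ratio of 0.993 (0.965 to 1.02), and the hemoglobin mRNAs to a ratio of 0.983 (0.945 to 1.02). Their part in the result was not tested.

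The other 7 members had log2 differences of −0.15 to 0.07 in input, with adjusted p from 0.97 to 0.99. Malat1 was lower with e5UTR in each column (ratio 0.907, 0.848 to 0.970), as was Snhg8 (0.90, 0.801 to 1.01), and neither passed the test (log2 −0.14 ± 0.06 and −0.15 ± 0.09). With Bc1 these were 3 of 8 members whose input columns did not overlap between the treatments, against 10.6% of all tested genes.

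In IP, 884 genes were called (10.9%), 379 higher and 505 lower with e5UTR, and 4 of the 8 members were among them. Malat1 and Snhg9 were lower, and Snhg1 and Gas5 were higher by small amounts. The median of the 8 members was −0.14 and that of all tested genes 0.00. The columns of 5 members did not overlap, against 28.7% of all tested genes: Malat1 and Snhg9 lay below, and Snhg1, Snhg8 and Gas5 above.

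Malat1 fell from 42.6 CPM (37.4 to 48.4) in IP shGpr151 to 21.3 (17.8 to 25.3) in IP with e5UTR, a ratio of 0.50 (0.40 to 0.622) and a log2 difference of −0.997 ± 0.16 (adjusted p = 4.6e-05). The call held under all 20 alternatives, with values of −1.25 to −0.94. The difference between the fractions, tested as an interaction of fraction and e5UTR, was −0.86 ± 0.17 (adjusted p = 0.0016), where 413 genes (5.11%) were called. Other RNAs of low level in IP were lower as well. The 15 mitochondrially encoded RNAs summed to a ratio of 0.813 (0.791 to 0.836) in IP, the 18 other long noncoding RNAs to 0.827 (0.793 to 0.861), or 0.846 (0.799 to 0.896) without Ftx, and of the 281 tested long noncoding RNAs 45 were called lower and 5 higher, with a median of −0.24. Zfas1 was at −0.21 ± 0.04 and Firre at −0.35 ± 0.12, both called. Malat1 had the third lowest value among the 45. Relative to the mitochondrially encoded counts of the same pools, the ratio of Malat1 was 0.615 (0.492 to 0.767), so that its difference was larger than theirs. Of the 15 mitochondrially encoded RNAs 8 were called lower and 0 higher, and of the 10 sensory neuron mRNAs 2 were called higher and 0 lower, with a median log2 difference of −0.01 (ratio of the sums 1.06, 1.04 to 1.07). The part of these RNAs in the result was not tested.

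Bc1 and Meg3, the other members of very low level in IP, did not pass the test there. Bc1 had a ratio of 0.770 (0.593 to 0.998) and a log2 difference of −0.38 ± 0.17 (adjusted p = 0.20), which became −0.61 with a call without column 3 of IP shGpr151 (adjusted p = 0.028) or without column 1 of IP with e5UTR (adjusted p = 0.041). Its interaction was −0.06 ± 0.17 (adjusted p = 0.92), so the lower level of Bc1 in input with e5UTR was not shown to differ from that in IP. Meg3 was at −0.30 ± 0.41, with 24 and 21 counts, and no difference was detectable at this depth (ratio 0.807, 0.427 to 1.51).

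Snhg9 fell from 281 CPM (267 to 295) to 182 (172 to 193) in IP, a ratio of 0.649 (0.60 to 0.701) and a log2 difference of −0.62 ± 0.06 (adjusted p = 7.8e-09). Its interaction was −0.66 ± 0.09 (adjusted p = 1.4e-05), since input did not differ (ratio 1.03, 0.931 to 1.13). Snhg9 overlaps Rps2, a ribosomal protein gene and itself a snoRNA host, in the RefSeq annotation, with starts on opposite strands. Rps2 moved the other way in the same pools. Its IP columns had 81, 89 and 88 counts with shGpr151 and 214, 151 and 158 with e5UTR, a ratio of 1.87 (1.61 to 2.18) and a log2 difference of 0.90 ± 0.14 (adjusted p = 5.5e-05), while input held 267 and 264 counts. In IP, the raw counts of Snhg9 thus fell by 465 between the pools and those of Rps2 rose by 265. These differences are not scaled for depth, which was 4145071 counts with shGpr151 and 4549204 with e5UTR. Whether counting used strand, and to which of the 2 genes a shared read went, is not given, so reads of the pair cannot be told apart and both levels are uncertain. With the 2 rows summed, an alternative chosen after seeing the data, the ratio in IP was 0.821 (0.768 to 0.879), the log2 difference −0.28 ± 0.06 (adjusted p = 0.0013) and the interaction −0.31 ± 0.09 (adjusted p = 0.047). The sum kept the direction and the call of Snhg9, with a smaller difference.

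**Figure D5:**
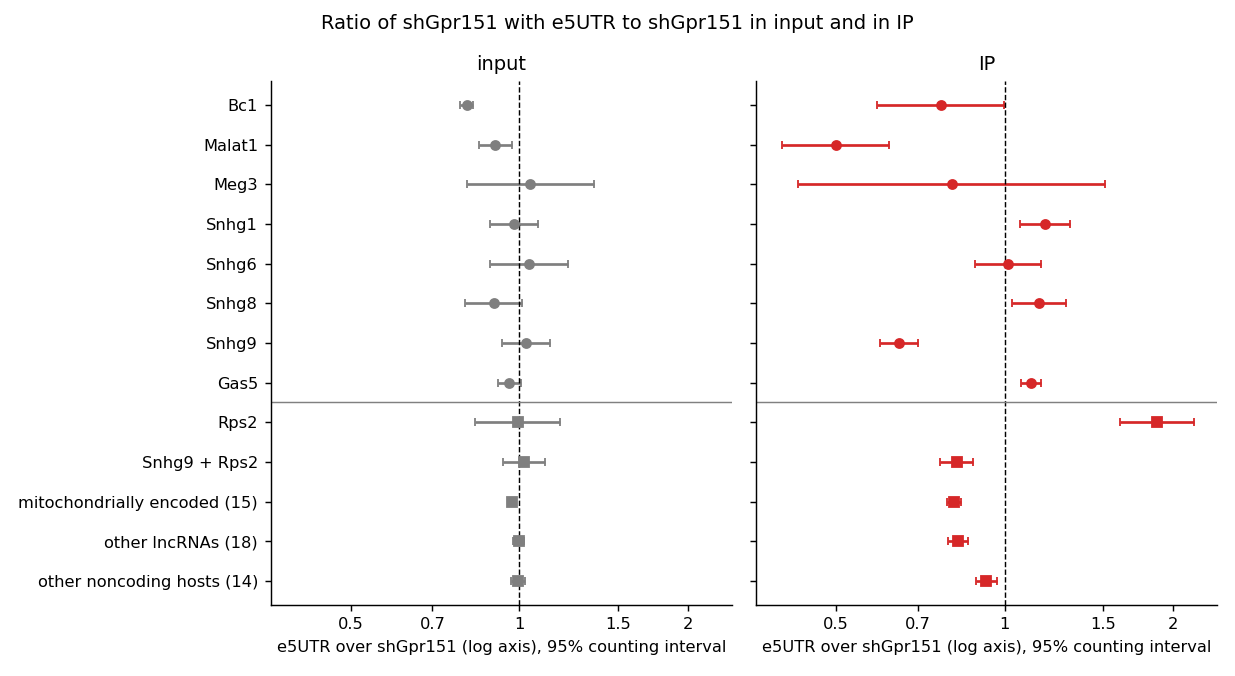
Ratio of shGpr151 with e5UTR to shGpr151 in input (left, grey) and IP (right, red) on a log axis, with 95% counting intervals, for the 8 members (circles) and, as squares, for Rps2, its sum with Snhg9 and 3 gene lists; the dashed line marks a ratio of 1. In input only Bc1 and Malat1 among the members have intervals below 1, and in IP Malat1 (0.50) and Snhg9 (0.649) lie lowest and Rps2 (1.87) highest.

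The host genes Gas5, Snhg1 and Snhg8 had slightly higher levels in IP with e5UTR. Gas5 had a ratio of 1.12 (1.07 to 1.16) and a log2 difference of 0.16 ± 0.04 (adjusted p = 0.0023), with an interaction of 0.22 ± 0.05 (adjusted p = 0.010). Snhg1 had a ratio of 1.18 (1.07 to 1.31) and a difference of 0.24 ± 0.08 (adjusted p = 0.048), and Snhg8 a ratio of 1.15 (1.03 to 1.29) and a difference of 0.20 ± 0.08 that did not pass (adjusted p = 0.12). Neither Snhg1 nor Snhg8 had a called interaction (0.27 ± 0.11, adjusted p = 0.21, and 0.36 ± 0.12, adjusted p = 0.092). Snhg6 did not differ beyond counting error, with a ratio of 1.01 (0.884 to 1.16). The calls of Gas5 and Snhg1 were lost without any 1 of the 6 IP columns (0.03 to 0.09 for Gas5, 0.10 to 0.19 for Snhg1) and with DESeq2 size factors (0.09 and 0.17). Gas5 was called in 12 of 20 alternatives and Snhg1 in 4 of 20, so that the call of Snhg1 was also lost without any 1 of 4 of the input columns, by library total, with no filter on low counts and with limma-voom (adjusted p from 0.055 to 0.079), at values of 0.22 to 0.24. Leaving out any 1 IP column moved the scale of the IP pools against each other, by −0.10 to −0.09 at the median of all genes. Relative to the median of all genes Gas5 stayed at 0.13 to 0.18 and Snhg1 at 0.19 to 0.28 in those 6 fits, against 0.16 and 0.24 in the fit of all columns.

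Among the lists, 1 of 12 other noncoding host genes was called lower in IP with e5UTR, namely Zfas1, and 0 were called higher, with a median of −0.02. Of the 31 coding host genes 10 were called higher and 2 lower, with a median of 0.05. Rps2 had the highest value of these, and Rpl10 was at 0.35 ± 0.04. Of 13 other long noncoding RNAs 3 were lower and 0 higher, and these were Ftx, Pvt1 and Firre, with log2 differences of −0.31, −0.35 and −0.35.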

How the data were processed

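Per the labels' protocols, cDNA was amplified and barcoded with an Oxford Nanopore kit for cDNA-PCR. The authors deposited 1 table of estimated counts per Ensembl gene, written as whole numbers and named here as estimated counts; Salmon, minimap2 and the builds mm39 and GRCm39 are listed in the submitters' processing notes, with neither versions nor roles. For counting settings, strand use and filters the sources used here give nothing, and the lowest total of a gene was 13 counts. A symbol matched 89.9% of gene IDs, and the rest took 11.0% of all counts.

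The 8 members, the gene lists and the tests were chosen with earlier results of these data known, so no list is independent evidence. edgeR 4.0.16 (R 4.3.3) was run with filterByExpr (minimum count 10, minimum total 15), TMM on the 8085 tested genes, 1 model of 4 group means over 12 columns, and Benjamini-Hochberg adjustment at 0.05. The biological coefficient of variation was 2.58% over columns and 10.4% over the 4 pools. All adjusted p-values are from this edgeR test unless another is named, and they measure only the spread between columns, which may be technical. Levels are pooled counts with exact Poisson 95% intervals, and ratios have exact binomial (Clopper-Pearson) intervals or, between genes, conditional odds ratio intervals (scipy 1.17.1). PCR reads are not independent molecules, so intervals cover counting error only. For a count of 0 a fixed floor of 3 counts was set, which is not the upper limit of these intervals. The edgeR comparison of the treatments in IP was tested on simulated counts with a spread like that between columns. The floor, the intervals and the comparison of IP with input were not part of that test.

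Named list genes were the 3 highest and 3 lowest of each list by log2 IP over input among those with at least 30 counts, the 3 genes most like each of 4 members, and genes that overlap a member or lie nearest to it, of which some are not reported here; others named, among them Pmp22, Ncmap, Glul, Lyz2, Col1a1, Rpl10, Ftx and Pvt1, were chosen after their values were seen. Alternatives were other scalings, filters and tools, a replicate block, the pools as samples and leaving out each column.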

Additional observations from a re-analysis of the deposited data

Results flagged for a closer look

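These results differed between input and IP by a test of the difference itself, the interaction of fraction and e5UTR in edgeR's quasi-likelihood test: Malat1 at −0.8558 (adjusted p = 0.0016), Snhg9 at −0.6627 (1.4e-05), Gas5 at 0.2164 (0.010) and Rps2, which overlaps Snhg9, at 0.9114 (0.0090), all on the log2 scale. In each, the input pools differed by at most 0.14 and the IP pools carried the difference. The calls of Malat1 and Snhg9 held in every alternative run, with values of −1.10 to −0.80 and −0.77 to −0.31. That of Gas5 was lost with DESeq2 size factors (0.15, adjusted p = 0.15), with the DESeq2 Wald test (adjusted p = 0.22), without any 1 of the 6 IP columns and without column 1 of input shGpr151 (0.10 to 0.19). That of Rps2 was lost without column 1 of IP with e5UTR (0.64, adjusted p = 0.071), the column with 214 counts beside 151 and 158.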

How the results depend on the processing

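Of 974 values of the 8 members under alternatives, 933 kept their side of the threshold with no reversal of a called value. These include values that changed sign where neither fit had a call. Another 37 lost the call (16 of them Snhg1 in IP with e5UTR), 2 gained it, and 2 were reversed with a call in either fit. Scaled by library total, the calls in IP over input became 5205 higher and 1984 lower in the mean of both treatments, 4743 and 1844 in shGpr151, and 4884 higher with e5UTR. Snhg9 then reversed to 0.1445 in the mean and 0.4876 in shGpr151, Rps2 reversed to 0.3507 with e5UTR, and the median level of the members in IP became 61.3% and 75.1% of input in the 2 treatments. In input, the genes called higher with e5UTR numbered 2 with no filter on low counts, 0 with the DESeq2 Wald test and 0 with limma-voom. In IP they numbered 184 with DESeq2 size factors and 93 with the DESeq2 Wald test, and 56 and 38 in the interaction. The members called in IP were 2 with either. Without 1 column, the genes called in input numbered 10 to 19 (0 to 3 higher, 9 to 17 lower, against 16, 1 and 15), those higher in IP 93 to 384 (against 379), those higher in the interaction 36 to 109 (against 127), and the members called in IP 2 to 4. With the replicate block 814 genes were called in IP and Snhg1 alone among the members lost its call (0.24, adjusted p = 0.064, edgeR); the numbers did not pair the columns, whose correlations of same-numbered deviations ran from −0.36 to 0.38 over 18 pairs, and in 10 of 36 comparisons a column was closest to its own number. Fitting each Ensembl ID on its own was not run, since each member has 1 ID. Depth limits Meg3, with at most 9 counts in an IP column.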
